A study of Homo sapiens with 3 samples.

Results

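The genes described here are 10 Golgi matrix proteins and golgins, namely GOLIM4, GOLM1, GOLGA1 to GOLGA5, GOLGB1, GORASP1 and GORASP2. They were taken by symbol from the array's annotation, which names 20046 genes, and all 13 of their probes were read. The group was picked because GOLIM4 was among the genes lowered most with both siRNAs against TARBP2. The difference from control therefore chose it, so these differences are given as a description, with no test. Transcript levels were measured in 293T cells, a human embryonic kidney line with the SV40 large T antigen, 48 h after lipid transfection. TARBP2, which binds double-stranded RNA and works with the nuclease DICER1, was knocked down with siTARBP2-1 on 1 array and with siTARBP2-2 on 1 array. The control, siControl, has 1 array; the labels call it a control siRNA, while the design text speaks of mock transfection. All 3 arrays come from the same line in 10% serum and carry no other treatment in the labels. Nothing there tells whether the transfections were separate cultures.

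The Golgi apparatus is a stack of flattened cisternae that receives proteins from the endoplasmic reticulum, trims and extends their sugars, and sorts them onward. Golgins are long coiled-coil proteins on the cytosolic face that catch transport vesicles, each at its own part of the stack, and GRASP proteins hold cisternae together and bind golgins. GOLIM4 and GOLM1 are different in kind: both are membrane proteins with most of their chain in the lumen. GOLIM4, also called GPP130, cycles between the Golgi and endosomes and is sent to lysosomes when manganese is high.

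Promoter sequences were taken from RefSeq (GRCh38.p14) to show the letters in front of these genes; 9 of the 10 matched, with 12 windows in all, and GOLGA4 was the one without a match. The first sequence is shown because GOLIM4 carries the largest difference below. It is the 250 bases before its start, at chr3:168095925-168096174 on the minus strand, with CCAAT boxes in capitals. They lie 108 and 53 bases before the start.
GOLIM4: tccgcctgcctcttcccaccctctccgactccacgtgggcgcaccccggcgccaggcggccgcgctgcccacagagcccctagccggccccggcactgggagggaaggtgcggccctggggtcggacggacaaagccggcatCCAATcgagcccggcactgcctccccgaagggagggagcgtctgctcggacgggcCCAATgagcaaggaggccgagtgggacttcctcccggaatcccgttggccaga

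The next 3 are shown because they hold ACGTGGC, the core of the Golgi apparatus stress element through which TFE3 is known to act on Golgi genes, in capitals and on either strand. The GOLGA1 window is chr9:124941233-124941289 (minus strand), the GOLGA5 window chr14:92794100-92794156 (plus strand) and the GORASP2 window chr2:170929218-170929274 (plus strand).
GOLGA1: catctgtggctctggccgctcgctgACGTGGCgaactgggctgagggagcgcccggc
GOLGA5: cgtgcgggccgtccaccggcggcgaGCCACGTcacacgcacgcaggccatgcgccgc
GORASP2: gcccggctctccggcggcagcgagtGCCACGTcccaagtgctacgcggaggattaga

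The core begins 181 bases before the start of GOLGA1, 180 before that of GOLGA5 and 10 before that of GORASP2. Over both strands of the 300 base windows, which run from 250 before to 50 after the start, the core was in 4 of the 12 (GOLGA3 is the fourth gene), beside 3.22% of all 35116 promoters and 4.06% of the 13931 promoters of genes kept on these arrays. In GOLGA1 and GOLGA5 it overlaps TGACGTGG, an unfolded protein response element, found in 0.729% of all promoters and 0.869% of those of kept genes. CCAAT was in 3 of the 12, in GOLIM4, GOLGA2 and GOLGB1, beside 34.6% of all promoters and 35.2% of those of kept genes. The SP/KLF motif GGGCGG was in 9 of the 12 (all promoters 45.0%, kept genes 66.0%) and CCGGAAG of ETS factors in 4 (10.3% and 16.7%). TGACG, which TGACGTGG contains, was in 6 (24.6% and 31.99%) and the NRF1 motif in 1 (1.24% and 1.97%). The windows of GOLGA3 and of GOLM1 are several per gene, so the 12 are not independent, and a match of letters is a description of the window and not a binding site. The array does not measure promoter use.

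The 3 arrays had mean raw signals of 514.3 to 680.4 over 47323 probes, and 18449 to 19155 probes were above background, defined as a detection p under 0.01. Signals below are background-corrected, quantile-normalized log2 values. A probe was kept if it was above background on at least 1 array, which held for 20119 probes and 11768 genes. All 13 probes of the group passed, 12 of them on all 3 arrays. TARBP2 was 4.34-fold lower with siTARBP2-1 and 4.91-fold lower with siTARBP2-2 at ILMN_1729767, and 3.10-fold and 3.61-fold lower at ILMN_2310253. Of the fixed markers of 293T, the neurofilament genes NEFL, NEFM and INA were above background on every array and PAX2 on none. Of 4 markers of the breast line MDA-MB-231, 3 were above background on each array (CD44, CAV1 and PLAU, not AXL), of 4 fibroblast markers 1 (COL1A1), and of 3 blood markers with a probe 1 (CD14). A single array per siRNA and a single control mean that no error between cultures can be given. An SD below is over the 2 siRNAs (n = 2), and precision is limited by the number of arrays throughout. Both differences subtract the same control array, so this SD holds no error of the control. A small SD says only that the 2 siRNA arrays read alike. In bulk RNA, fewer cells with a transcript and less of it per cell cannot be told apart.

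GOLIM4 lay below control at all 3 of its probes with both siRNAs, but the size depended on the probe and on the siRNA. At ILMN_2186216 the normalized log2 signal was 7.33 with siTARBP2-1, 7.27 with siTARBP2-2 and 8.72 with siControl. Both knockdown arrays were close together and well below the control. The raw signals behind these were 245.0, 172.9 and 422.7, so the order was there before normalization. The differences were -1.40 and -1.46, a level 2.63-fold and 2.74-fold lower, with a mean difference of -1.43 ± 0.04 (SD, n = 2). Among the 20119 kept probes this mean was at rank 9 from the lowest.

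The second GOLIM4 probe separated the siRNAs. At ILMN_1795344 the log2 signal was 6.95 with siTARBP2-1, 7.89 with siTARBP2-2 and 8.24 with siControl. Here siTARBP2-1 alone stood far below control, by -1.28 (2.43-fold lower), while siTARBP2-2 differed by -0.35 (1.27-fold lower). The 2 knockdown arrays were thus 0.93 log2 units apart, 1.91-fold, and the mean difference was -0.82 ± 0.66 (SD, n = 2). Raw signals were 198.0, 242.2 and 313.2 in the same order, although the siTARBP2-1 array was the brightest overall.

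The third probe, ILMN_3245116, gave the smallest GOLIM4 differences. Its log2 signal was 6.26 with siTARBP2-1, 6.86 with siTARBP2-2 and 6.98 with siControl. The siTARBP2-1 array was again the lower, at -0.73, and siTARBP2-2 lay near control at -0.13, with a mean of -0.43 ± 0.42 (SD, n = 2). With siTARBP2-1 all 3 probes were lower by more than 1.5-fold, beside 1.9% of all kept probes, and with siTARBP2-2 only ILMN_2186216 was, beside 5.88%. The probe that stands for GOLIM4 when 1 probe a gene is used, the one with the highest mean, is ILMN_2186216. All 3 are assigned to the same transcript accession, NM_014498, and the probe sequences were not used here, so which part of the transcript each one reads is not given.

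**Figure D1:**
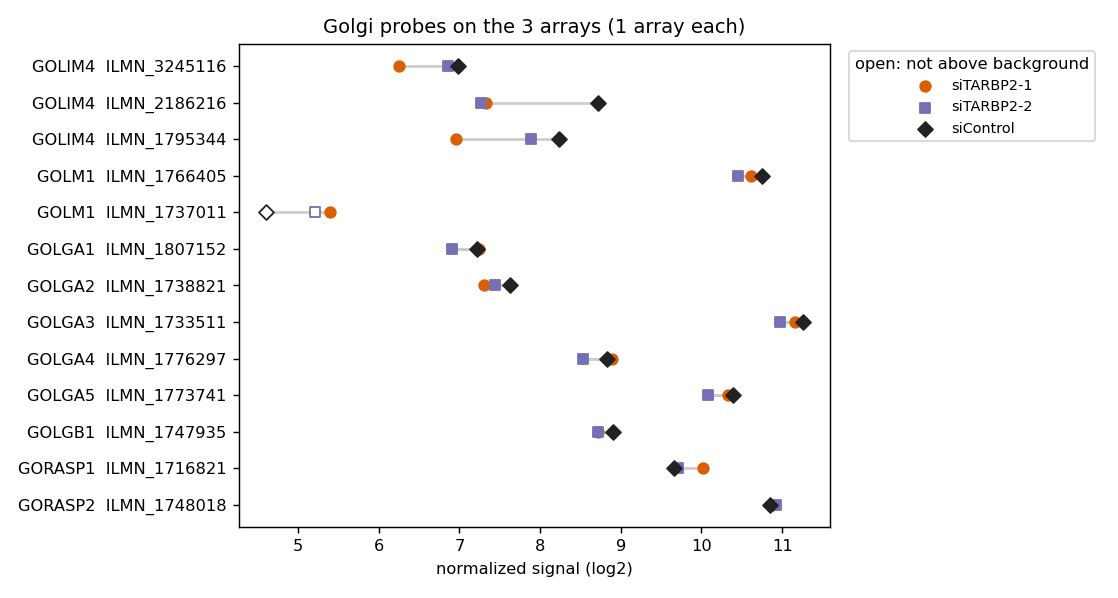
Normalized log2 signal of the 13 probes on the siTARBP2-1 (circles), siTARBP2-2 (squares) and siControl (diamonds) arrays, 1 array each, with open symbols where a probe was not above background. At the 3 GOLIM4 probes the control diamond is rightmost, and only at ILMN_2186216 do both knockdown symbols lie together, at 7.33 and 7.27, away from the control at 8.72.

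The mean differences of its 3 probes spanned 1.00 log2 units, 0.67 with siTARBP2-1 and 1.33 with siTARBP2-2. GOLIM4 was picked for low values in this contrast, so nothing is read from that width. Among the 54 genes with several kept probes of which at least 1 was lower by 1.5-fold with both siRNAs, all probes passed that size in 4, namely TARBP2, CTNNB1, TSC22D2 and RNA28SN5, which are named here after their values were seen. In 34 of the 54, GOLIM4 included, every probe was at least below control with both siRNAs. These 54 were taken for a low value at 1 probe, which favours smaller differences at their other probes.

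GOLM1, also called GP73, is a Golgi membrane protein of unknown molecular role that is used as a serum marker of liver disease. Its 2 probes pointed in opposite directions. At ILMN_1766405 the log2 signal was 10.62 with siTARBP2-1, 10.46 with siTARBP2-2 and 10.75 with siControl, so both knockdown arrays lay slightly below the control, by -0.13 and -0.30. At ILMN_1737011 it was 5.39, 5.21 and 4.61, with differences of 0.79 and 0.61. That second probe was above background with siTARBP2-1 only. Its control value is only a bound, and set against the lowest signal of a detected control probe, the knockdown mean was at least 1.01-fold higher, with 1 of 2 knockdown arrays measured. By the signals alone this probe passes the size of 1.5-fold upward with both siRNAs, as 0.477% of kept probes did. GOLIM4's ILMN_2186216 is the 1 of 13 that passes it downward, where 0.76% of kept probes did. As GOLIM4 chose the group, nothing is read from these counts.

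The 6 golgins differed little from control, and all 6 lay below it with siTARBP2-2. GOLGA2, known as GM130, sits on the cis face, binds GORASP1 and tethers incoming vesicles. Its log2 signal was 7.30 with siTARBP2-1, 7.44 with siTARBP2-2 and 7.62 with siControl, and the control was the highest of the 3. The differences were -0.32 and -0.19. GOLGB1, known as giantin, is the longest golgin and is anchored in the membrane by its tail. It read 8.72 with siTARBP2-1, 8.71 with siTARBP2-2 and 8.90 with siControl. Its knockdown arrays agreed to 0.00 log2 units and were both 0.19 lower than control (-0.19 and -0.19).

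GOLGA3 (golgin-160), a golgin that caspases cut in apoptosis, and GOLGA5 (golgin-84) also had their control value on top. GOLGA3 read 11.16, 10.97 and 11.26 with siTARBP2-1, siTARBP2-2 and siControl, with differences of -0.10 and -0.29. GOLGA5, a membrane-anchored golgin that captures vesicles moving between cisternae, read 10.32, 10.08 and 10.39, with differences of -0.06 and -0.30. In both genes siTARBP2-1 lay nearer to the control than siTARBP2-2 did.

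GOLGA1 and GOLGA4 are the golgins of the trans face with a GRIP domain, which binds the small GTPase ARL1. GOLGA1 (golgin-97) read 7.24 with siTARBP2-1, 6.90 with siTARBP2-2 and 7.22 with siControl. GOLGA4 (p230 or golgin-245) read 8.89, 8.53 and 8.83. In these 2 the control lay between the knockdown arrays: siTARBP2-1 differed by 0.02 and 0.06, and siTARBP2-2 by -0.31 and -0.30. The groups therefore overlap for GOLGA1 and GOLGA4. For GOLGA2, GOLGA3, GOLGA5 and GOLGB1 they do not, except that with array medians set equal siTARBP2-1 lay above control in the last 3. With any size counted, 3201 of all 11768 kept genes (27.2%) lay below control with both siRNAs and 3756 lay above with both. A lack of overlap was thus common among all genes, and nothing is read from it here.

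With siTARBP2-2 the 6 golgins lay within a narrow span, from -0.31 to -0.19, with a median of -0.30, where the median of all kept genes was 0.03 and 46% of genes lay below control. That span held 9.52% of all kept genes. Its ends are the golgins' own values on 1 array, so nothing is read from its width. With siTARBP2-1 they ran from -0.32 to 0.06 with a median of -0.08, against 0.00 for all genes, and 4 of the 6 lay below control (49.1% of all genes). With array medians set equal, a scaling that shifts the median of kept probes by 0.29 with siTARBP2-1 and -0.07 with siTARBP2-2, 1 of the 6 was below control with siTARBP2-1, and 4 were relative to that shift, while all 6 stayed below with siTARBP2-2. None of the 6 reached 1.5-fold with either siRNA. The SD of the difference over all kept genes was 0.25 with siTARBP2-1 and 0.36 with siTARBP2-2. Each of these golgin values with siTARBP2-2 thus lies within 1 SD of all genes. With siTARBP2-1, GOLGA2 at -0.32 lies beyond 1 SD and the other golgins lie within it.

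**Figure D2:**
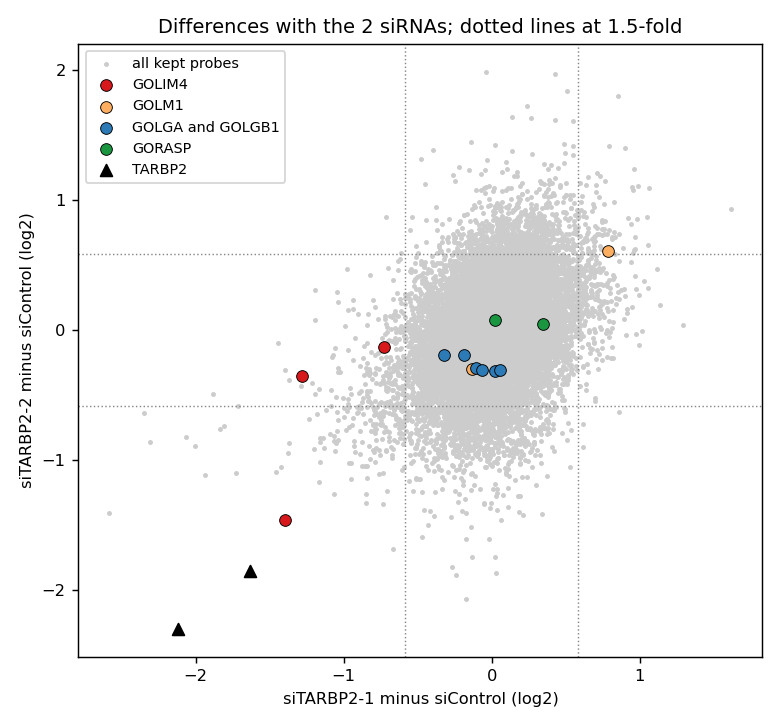
Difference from control on the log2 scale with siTARBP2-1 (horizontal) and siTARBP2-2 (vertical) for all 20119 kept probes in grey, the 13 Golgi probes in colour and the 2 TARBP2 probes as triangles; dotted lines mark 1.5-fold. The 6 golgins and 1 GOLM1 probe lie just below 0 on the vertical axis, from -0.31 to -0.19. On the horizontal axis the golgins run from -0.32 to 0.06. Of the 3 GOLIM4 probes, 1 lies in the lower left corner with TARBP2.

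GORASP1 and GORASP2, the GRASP proteins GRASP65 and GRASP55, were the only genes of the 10 whose highest-signal probe lay above control with both siRNAs, except that with array medians set equal siTARBP2-2 gave -0.04 and -0.02, still above the shift of -0.07 in all kept probes. GORASP1, the partner of GOLGA2 on the cis cisternae, read 10.01 with siTARBP2-1, 9.71 with siTARBP2-2 and 9.66 with siControl. The siTARBP2-1 array stood above the other 2, by 0.35 over control, and siTARBP2-2 differed by 0.05. GORASP2, which binds golgin-45 on medial cisternae, read 10.87, 10.93 and 10.85. Its 3 arrays lay close together, with differences of 0.02 and 0.08. GOLGA2 and its partner GORASP1 thus had differences of opposite sign, with means of -0.26 ± 0.09 and 0.20 ± 0.21 (SD, n = 2).

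Over 1 probe a gene, the median difference of the 10 was -0.08 with siTARBP2-1 and -0.29 with siTARBP2-2, beside 0.00 and 0.03 over all 11768 kept genes. Without GOLIM4, which chose the group, the other 9 had medians of -0.06 and -0.29. Of the 10, 6 lay below control with both siRNAs, 2 above with both and 2 changed sign between them. Without GOLIM4, 5 of the other 9 lay below with both. Of all 11768 kept genes, 3201 (27.2%) lay below with both, 3756 above with both and 4766 changed sign. The siRNA arrays differed from each other by more than 1.5-fold at 2 of the 13 probes, both of GOLIM4 and both lower with siTARBP2-1, where 10.6% of kept probes differed that much. At GOLGA1, GOLGA4 and GORASP1 siTARBP2-1 read 0.33, 0.36 and 0.30 above siTARBP2-2. Fewer of the 10 lay below control with both siRNAs when array medians were set equal. In that setting siTARBP2-1 was above control at the highest-signal probes of GOLM1, GOLGA3, GOLGA5 and GOLGB1. The median of the 13 probes was then 0.22 with siTARBP2-1 and -0.39 with siTARBP2-2, beside 0.29 and -0.07 over all kept probes. Relative to those shifts, 8 of the 13 probes lay below with both.

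The authors' own comparison gave each of the 10 genes the same sign as its highest-signal probe had here. Both come from the same 3 arrays, so the shared sign is no independent evidence. In the authors' deposited table, which has 1 log fold change per accession of both siRNAs against control, GOLIM4 stood at -0.53, at rank 57 from the lowest of 39747 accessions. The authors' deposited table put GOLGA3 at -0.20, GOLGA5 at -0.18, GOLGA2 at -0.14, GOLGB1 at -0.14, GOLGA4 at -0.09, GOLGA1 at -0.07 and GOLM1 at -0.02, while GORASP1 was at 0.18 and GORASP2 at 0.05. Its class column marks values above 0.2 as up-regulated and has no class for lowered values. In the authors' deposited table none of the 10 was in the up-regulated class, which held 1036 of all 39747 accessions. The log base of the authors' deposited table is not stated; over 2374 bright accessions with 1 probe the slope against log2 differences of their normalized values was 0.990, which fits log2. How the 3 GOLIM4 probes were combined there is not given in the sources used here.

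Other genes of the Golgi and its traffic were read from 10 lists chosen by function, 137 genes in all, of which 128 were kept. None passed limma's test of both knockdown arrays against control (0 of 128 with a Benjamini-Hochberg adjusted p under 0.05 over 11768 genes; 0 of all genes), and at an unadjusted p under 0.05 there were 3, which is 2.34%, beside 1.73% of all genes. By size, 1 of the 128, YKT6, was higher by 1.5-fold with both siRNAs and 0 were lower, beside 0.45% and 0.476% of all genes. Below control with both siRNAs were 34 of 128 (26.6%, all genes 27.2%), and 33 were above with both (3756 of all 11768 genes). The counts by list given below stand beside these shares, and nothing is read from them. The medians were 0.03 with siTARBP2-1 and -0.05 with siTARBP2-2.

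**Figure D3:**
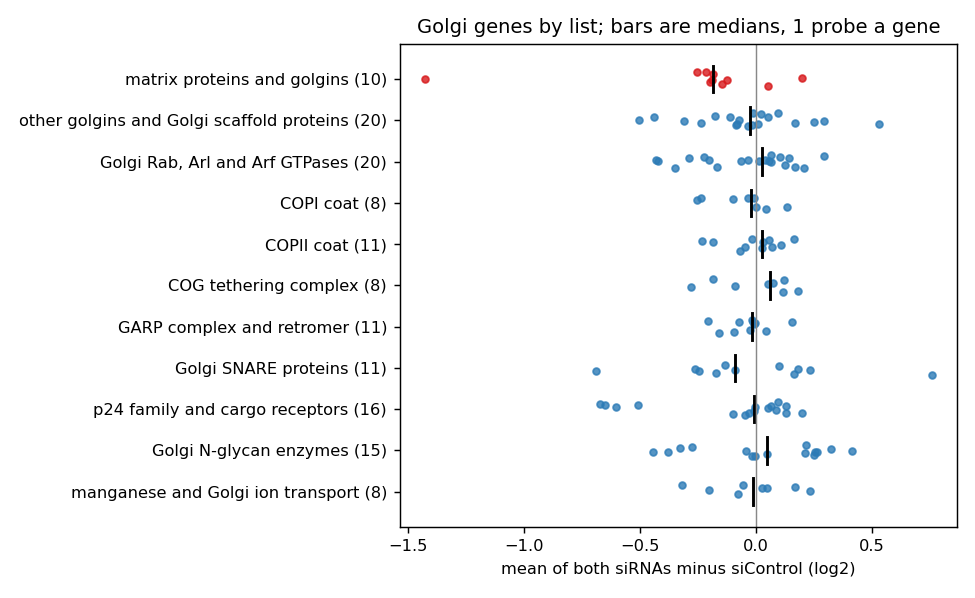
Mean difference of both siRNAs from control (log2), 1 point per kept gene at its highest-signal probe, for the 10 matrix proteins and golgins (red) and 10 lists of other Golgi genes (blue), with the number of genes in brackets and the median as a bar. The 10 have their median at -0.19 with GOLIM4 apart at -1.43, and the medians of the other lists lie between -0.09 and 0.06.

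Of 20 other golgins and scaffold proteins kept, 4 lay below control with both siRNAs, 4 above with both, and 12 changed sign. GCC2, a GRIP golgin of the trans face, differed by -0.05 with siTARBP2-1 and -0.96 with siTARBP2-2, but its other probe gave 0.20 and -0.16. GCC1, the remaining GRIP golgin, named here for its domain after the values were seen, differed by 0.08 and 0.02. GOLGA7B, a partner of palmitoyl transferases, had the largest mean difference upward, but was above background with siTARBP2-2 alone, which bounds the knockdown mean at 1.14-fold or more over control (at least 1.14-fold). Of 20 GTPases and their regulators, 6 lay below with both and 5 above. ARF4, an ARF of the early Golgi, gave -0.14 and -0.72, and its second probe -0.06 and -0.68. ARFGEF1, an exchange factor of trans-Golgi ARFs, gave -0.05 and -0.80, with 0.47 and -0.50 at the other probe. In both genes the siTARBP2-2 array was the low one.

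Among the coats, 5 of 8 COPI genes lay below control with both siRNAs and 0 above. Of all 11768 kept genes, 27.2% lay below with both and 3756 above with both. The differences were small, with COPI medians of -0.002 with siTARBP2-1 and -0.09 with siTARBP2-2. COPA, the alpha subunit, gave -0.24 and -0.26, and ARCN1, the delta subunit, -0.14 and -0.33. Of 11 COPII genes 3 lay below and 2 above with both; SEC24A, a cargo adaptor, gave -0.08 and -0.39 and SEC23B -0.16 and -0.21. None of the 8 COG genes lay below control with both, while 4 lay above; COG5 gave 0.19 and -0.75 at its highest-signal probe, with -0.20 and -0.78 and with -0.11 and -0.71 at the others, and COG1 0.10 and -0.47. For the GARP complex and retromer, which return proteins from endosomes to the Golgi, 3 of 11 lay below and 2 above with both. VPS53 gave -0.25 and -0.16, with 0.60 and -0.21 at a second probe, and VPS35, the retromer core, 0.14 and 0.17.

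Among the SNAREs, YKT6, a SNARE attached by lipids, differed by 0.78 and 0.74, but its control signal was not above background and the difference is at least 1.40-fold. SEC22B, a SNARE of traffic from the endoplasmic reticulum, read 9.28 with siTARBP2-1, 9.57 with siTARBP2-2 and 10.12 with siControl. Both knockdown arrays were below the control, by -0.83 and -0.55 (mean -0.69 ± 0.26, limma SE; adjusted p = 0.99991), so the second stays just short of 1.5-fold. Of the p24 family and cargo receptors, TMED4 gave -0.84 and -0.51 but -0.13 and -0.22 at its second probe. TMED7 differed with siTARBP2-2 alone, by -1.22 against -0.08, and its second probe gave -1.13 against 0.20. In that list of 16, 3 lay below control with both siRNAs and 5 above.

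Sugar-processing enzymes went both ways, with 4 of 15 below and 6 above control with both siRNAs. MAN1A2, which trims mannose, gave -0.52 and -0.37, and -0.33 and -0.78 at its other probe, so all 4 values were below control. MAN2A2, a later mannosidase, gave 0.16 and 0.67. Manganese and ion transporters were looked at because GOLIM4 responds to manganese; 2 of 8 lay below and 2 above with both. TMEM165, a transporter needed for manganese in the Golgi, gave 0.36 and 0.11, and the zinc transporter SLC30A7 -0.16 and -0.48. In limma the adjusted p was 0.99991 for every gene named from these lists.

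The genes whose pair of differences lay nearest to that of GOLIM4's ILMN_2186216 were USP53, LIN7C, TRIM16L, RNA5S9 and RNVU1-18. Nearness is the distance between the pairs of differences with siTARBP2-1 and siTARBP2-2, over 3 arrays, and it ran from 0.37 for USP53 to 0.59 for RNVU1-18. LIN7C, a polarity scaffold, was at -1.17 with both siRNAs, while its other probe gave -0.03 and -0.32. TRIM16L was at -1.73 and -1.10 and RNVU1-18, a U1 small nuclear RNA variant, at -1.37 and -0.86. USP53 and RNA5S9 were above background on the control array only and have bounds of at least 1.63-fold and 1.97-fold lower. The genes were chosen for this likeness, and 3 arrays that share 1 control cannot say more about it.

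GOLIM4's 3 probes kept their sign under every normalization tried. At ILMN_2186216 both siRNAs stayed past 1.5-fold under each of the 5 settings. At ILMN_1795344 siTARBP2-1 stayed past it and siTARBP2-2 stayed short of it in all 5. At ILMN_3245116 siTARBP2-1 was past 1.5-fold in the main setting only, with -0.51 without background correction and -0.50 in the authors' normalized values.

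**Figure D4:**
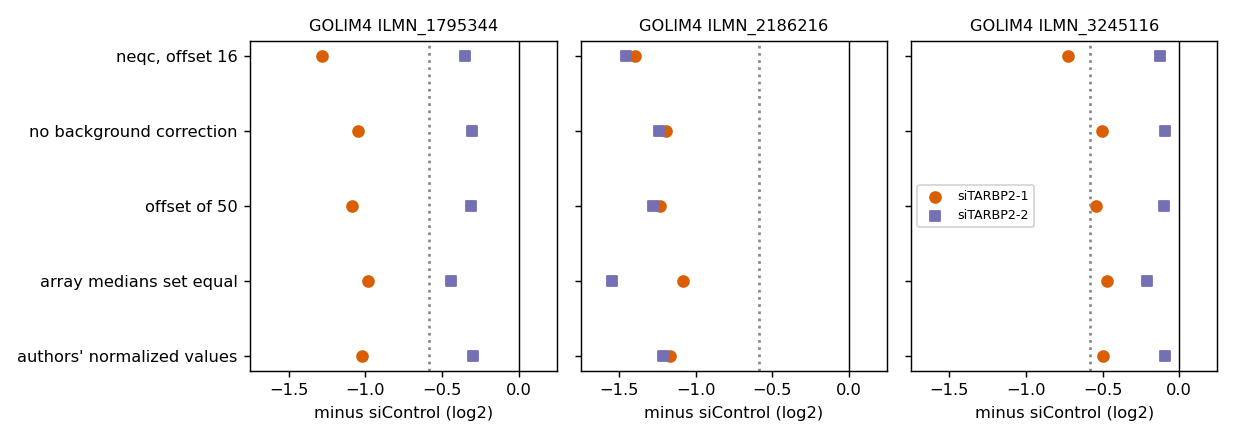
Differences of the 3 GOLIM4 probes from control (log2) with siTARBP2-1 (circles) and siTARBP2-2 (squares), in 1 panel per probe and 1 row per normalization; the dotted line marks 1.5-fold lower. In the middle panel both symbols lie left of the dotted line in every row, and in the left panel only the circles do.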

How the data were processed

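The deposited non-normalized table gives, per the file headers, each array's average intensity and detection p-value for every probe; the detection columns were tied to arrays by header order. A second deposited table holds the authors' normalized intensity values, and another the authors' log2 fold change per accession (base inferred above) and a 0 or 1 class that follows a cut at 0.2. Per the submitters' processing notes lumi was used; its version is not given in the sources used here. Every per-sample column was used.

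Signals were background corrected from the detection p-values and quantile normalized with neqc of limma 3.58.1 (R 4.3.3), offset 16. This correction widens dim probes' differences, and quantile normalization hides a change of most transcripts. Gene symbols came from the platform annotation: 30113 of 47323 had 1 symbol, 8 several and 17202 were not listed. Of a gene's probes the one with the highest mean stood for the gene. Knockdown (2 arrays) was compared with control (1 array) in limma (lmFit, eBayes, two-sided, Benjamini-Hochberg over all genes). This leaves 1 residual degree of freedom and assumes that the lone control varies as the knockdown arrays do. The p-values rest on the spread between the 2 knockdown arrays, which carry different siRNAs, pooled by eBayes with that of all genes. They do not measure a spread between cultures. The fit was also run on simulated data, from which nothing is read here. With so few arrays, a gene that was not called is not shown to be unchanged. A size of 1.5-fold was used where no test applies. A probe not above background throughout a group has a bound: the brighter group's mean over the dim group's signal, raised on each array to at least the lowest signal of any detected probe.

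Named are the 10 genes at every probe, TARBP2, in each list the genes past 1.5-fold with both siRNAs and the 2 with the largest mean difference, and the 5 genes nearest to GOLIM4. The genes and lists were chosen with earlier results of these data known. Alternatives were no background correction, an offset of 50, equal array medians, the authors' normalized values, other filters, the mean of probes, a trend and robust fit, and leaving out a knockdown array.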

Additional observations from a re-analysis of the deposited data

How the results depend on the processing

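The mean differences over both siRNAs kept their sign at the other 10 probes in all 40 values under other normalizations. Single siRNAs did not all keep it: with array medians set equal, siTARBP2-1 turned above control at GOLM1 ILMN_1766405 (0.19), GOLGA3 (0.22), GOLGA5 (0.27) and GOLGB1 (0.16), and siTARBP2-2 turned below at GORASP1 (-0.04) and GORASP2 (-0.02). With array medians set equal, the median of kept probes shifted to 0.29 with siTARBP2-1 and -0.07 with siTARBP2-2; relative to it, 4 of the 6 golgins were again below with siTARBP2-1, where 1 was without that allowance, and all 6 stayed below with siTARBP2-2. GOLIM4's ILMN_2186216 had a mean of -1.22 without background correction, -1.26 with an offset of 50, -1.31 with equal medians and -1.19 with the authors' normalized values. With 1 knockdown array left out it ran from -1.46 to -1.40, ILMN_1795344 from -1.28 to -0.35 and ILMN_3245116 from -0.73 to -0.13. One of the 13 probes was lower by 1.5-fold with both siRNAs in each setting (1 to 3 with an array left out). The 1 higher probe, of GOLM1, was 0 under each of the other 4 normalizations and stayed at 1 with either knockdown array left out.

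Counts past 1.5-fold with both siRNAs moved more. Lower and higher probes numbered 153 and 96, and 29 and 6 without background correction, 35 and 6 with an offset of 50, 98 and 196 with equal medians, 29 and 4 with the authors' values and 80 and 35 with detection on all 3 arrays. Lower and higher genes numbered 56 and 53, and 14 and 1, 17 and 2, 36 and 120, 15 and 0, and 36 and 20 in the same order. A larger offset or no background correction shrinks differences of dim probes by construction. Detection on all 3 arrays keeps fewer of the same probes and genes at the same values, so its counts could not rise. The cause was not tested for the others. With 1 siRNA left out the size rule is met by a single siRNA, and lower probes numbered 382 to 1183, higher probes 338 to 999, lower genes 160 to 574 and higher genes 148 to 620. Limma called 0 probes under every setting run and 0 genes (204 genes and 400 probes at an unadjusted p under 0.05), apart from 1 lower gene with equal medians (adjusted p = 0.0382) and 1 with the trend and robust fit (adjusted p = 0.00423; range of the lowest adjusted p over settings 0.00423 to 1.00). Leaving out a knockdown array leaves limma no residual degree of freedom, so that was not run as a test. No paired analysis was possible because the control has 1 array. Signal over background limits the second GOLM1 probe, GOLGA7B and YKT6.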
